A study of Mus musculus with 6 samples.

Results

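The antiviral interferon-stimulated genes are described here in mouse lung by RNA-seq. They were taken by gene name: 38 symbols were listed and all 38 were found among the 21900 genes of the deposited table. The labels place 6 lung libraries in a wild type group (Wild Type) and a Cyp1b1 knockout group (Cyp1b1 KO), each with 2 females and 1 male. Every mouse had eaten a high fat diet for 10 weeks, so no other diet enters any comparison, and the sources used here do not give strain, age or the design of the knockout allele. Each library carries an identifier of its own, but nothing states that the 6 came from separate animals, and a p-value here reflects only how these libraries vary. Replicates 1 and 2 are the females and replicate 3 is the male in both groups. The targeted gene was not lower in the knockout group (below), and the groups are therefore called labelled wild type and labelled knockout.

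Interferons are secreted signals, and cells release those of type I and type III on meeting viral nucleic acid. Type I and type III interferons act through JAK kinases to assemble a complex with STAT2 and IRF9 that binds the interferon-stimulated response element (ISRE) of target promoters. Interferon gamma acts at another element, the gamma-activated site (GAS), and the sets of induced genes overlap. The products degrade viral RNA, block its translation, trap budding virus or amplify the signal, and lung epithelium, endothelium and immune cells can all express them.

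Values are CPM, reads per 1000000 reads assigned to genes. Libraries held 20.2 to 27.6 M assigned reads (M, 1000000), at which 3 reads are worth 0.109 to 0.148 CPM. These limits cover counting error only. Cyp1b1, a cytochrome P450 enzyme, was at 12.5, 19.0 and 18.5 CPM across labelled wild type 1 to 3 and at 51.2, 56.1 and 48.4 CPM across labelled knockout 1 to 3. It was higher in every library labelled knockout, by 1.63 (SE 0.18) on the log2(CPM + 0.5) scale, with an adjusted p of 0.0588 in limma and an exact two-sided permutation p of 0.1, the smallest that 3 against 3 libraries allow. Xist and Ddx3y matched the labelled sex of all 6 libraries. Summed markers of lung tissue (surfactant, airway and endothelial genes, 10 genes) ranged from 40234 to 47000 CPM over the females. They stood at 32331 CPM (labelled wild type) and 26286 CPM (labelled knockout) for the males. Against the females of its label, all 10 were lower in the male labelled wild type. In the male labelled knockout 8 were lower and 2 higher, the endothelial Cdh5 and Pecam1. In either male 0 of the 10 passed in limma. Each of these markers had reads in all libraries.

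Promoter sequences are shown first, since these genes are grouped by what their promoters are known to answer to. RefSeq windows on GRCm38.p6, from 250 bases before to 50 bases after the start of a gene, matched 28 of the 38 genes. The ISRE-type motif searched was TTTCNNTTTC, with GAAANNGAAA on the other strand, and the GAS-type motif was TTCNNNGAA, which reads alike on both strands. Below are the 200 bases before the RefSeq start of 9 genes with an ISRE-type match and of Irf1, with a GAS-type match, 5′ to 3′ on the strand of the gene. They were picked as the copies that are compared below (Ifit3 with Ifit3b, Oas1a with Oas1g), the genes that were high in both males (Rsad2, Oas3), a gene that went in opposite directions in the males (Bst2) and well-known family members (Isg15, Ifit1, Irf1). Capitals mark the bases inside a match to the motif named, and neighbouring matches can overlap.
Isg15, chr4:156200819-156201018, minus strand: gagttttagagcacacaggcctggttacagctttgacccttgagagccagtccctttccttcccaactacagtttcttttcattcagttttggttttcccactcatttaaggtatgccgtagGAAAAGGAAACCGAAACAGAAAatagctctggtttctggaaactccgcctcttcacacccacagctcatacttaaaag
Ifit1, chr19:34640689-34640888, plus strand: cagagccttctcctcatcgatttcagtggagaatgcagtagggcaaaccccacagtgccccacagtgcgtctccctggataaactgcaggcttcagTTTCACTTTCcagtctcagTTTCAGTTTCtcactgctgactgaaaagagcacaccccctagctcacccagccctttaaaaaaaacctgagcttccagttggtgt
Ifit3, chr19:34583329-34583528, plus strand: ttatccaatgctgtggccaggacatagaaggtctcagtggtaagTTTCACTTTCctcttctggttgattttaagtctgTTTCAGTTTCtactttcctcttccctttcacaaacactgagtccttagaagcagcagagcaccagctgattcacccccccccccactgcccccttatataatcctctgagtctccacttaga
Ifit3b, chr19:34607757-34607956, plus strand: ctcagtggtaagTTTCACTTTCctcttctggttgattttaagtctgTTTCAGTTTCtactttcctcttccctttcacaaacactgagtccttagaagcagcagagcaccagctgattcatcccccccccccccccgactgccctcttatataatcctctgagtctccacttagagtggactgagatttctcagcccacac
Oas1a, chr5:120907526-120907725, minus strand: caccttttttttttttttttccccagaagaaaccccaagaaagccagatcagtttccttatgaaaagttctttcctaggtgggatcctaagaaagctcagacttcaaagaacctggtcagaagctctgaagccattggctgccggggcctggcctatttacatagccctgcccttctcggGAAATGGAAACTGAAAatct
Oas1g, chr5:120887614-120887813, minus strand: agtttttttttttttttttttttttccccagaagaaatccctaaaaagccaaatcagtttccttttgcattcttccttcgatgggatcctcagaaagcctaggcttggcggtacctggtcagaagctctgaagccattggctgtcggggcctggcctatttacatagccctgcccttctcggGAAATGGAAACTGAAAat
Oas3, chr5:120777660-120777859, minus strand: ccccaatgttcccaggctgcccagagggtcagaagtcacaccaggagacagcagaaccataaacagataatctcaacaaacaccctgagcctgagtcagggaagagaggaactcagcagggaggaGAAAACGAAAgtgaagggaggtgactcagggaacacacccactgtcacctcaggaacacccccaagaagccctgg
Rsad2, chr12:26456453-26456652, minus strand: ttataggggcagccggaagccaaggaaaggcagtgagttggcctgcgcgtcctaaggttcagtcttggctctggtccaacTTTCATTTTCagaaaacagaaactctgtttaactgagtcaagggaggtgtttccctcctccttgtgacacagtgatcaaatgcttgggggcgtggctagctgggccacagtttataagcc
Bst2, chr8:71537473-71537672, minus strand: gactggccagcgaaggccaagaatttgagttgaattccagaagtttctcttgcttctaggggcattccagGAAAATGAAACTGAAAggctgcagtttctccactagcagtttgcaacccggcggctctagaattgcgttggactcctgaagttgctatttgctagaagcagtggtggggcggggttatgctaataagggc
Irf1, chr11:53769814-53770013, plus strand: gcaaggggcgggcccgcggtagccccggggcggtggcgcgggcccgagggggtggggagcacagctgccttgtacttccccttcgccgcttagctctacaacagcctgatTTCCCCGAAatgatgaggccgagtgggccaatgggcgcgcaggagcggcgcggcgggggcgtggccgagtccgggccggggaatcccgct

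The ISRE-type motif was present in 14 of the 28 genes with a window (50%), against 1079 of all 27025 genes with one (3.993%). The GAS-type motif was present in 7 of 28 (25%), against 2582 of 27025 (9.554%). A total of 3 genes, Bst2, Eif2ak2 and Oas1a, held both, and in Bst2 a match of each kind overlapped; only the ISRE-type bases of Bst2 and Oas1a are in capitals above. A match is a description of these letters and not a bound site. In the male labelled wild type, described next, 9 of 14 genes with the motif and 9 of 14 without it passed the test, and their median differences were 1.19 and 1.01 on the log2(CPM + 0.5) scale.

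The antiviral genes were high in 1 library, the male labelled wild type, and close to one another in the 4 females, where the highest value of a gene was 1.28 times the lowest at the median over the 38 genes. Summed over the 38 genes, labelled wild type 1 to 3 held 1260, 1188 and 2650 CPM and labelled knockout 1 to 3 held 1246, 1190 and 1154 CPM. The male labelled wild type lay above every female for all 38 genes. The share of all genes above every female was not counted for this male, so that count is a description only. The same male was the highest of all libraries for 36 of the 38 genes (94.7%), where 25.7% of all 17382 genes tested had their highest value in that library. Exceptions were Oas3 and Isg20, which were highest in the male labelled knockout. Against the 2 females of its own label, 24 of 38 genes (63.2%) rose past an adjusted p of 0.05 in limma and none fell, where 3.45% of all genes tested rose and 0.627% fell. The median difference was 1.15 over the antiviral genes and 0.01 over all genes, on the log2(CPM + 0.5) scale used throughout. In CPM the ratio of this male to the mean of the females of its label ran from 1.10 (Isg20) to 9.41 (Zbp1), with a median of 2.23. The label holds 1 male, so the spread in this test comes from the females and the male is assumed to vary like them. With no filter on low values 0 of the 38 genes passed, and 23 passed once the 122 genes with identical values within the females of each label were left out, an alternative chosen after seeing the data.

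**Figure D1:**
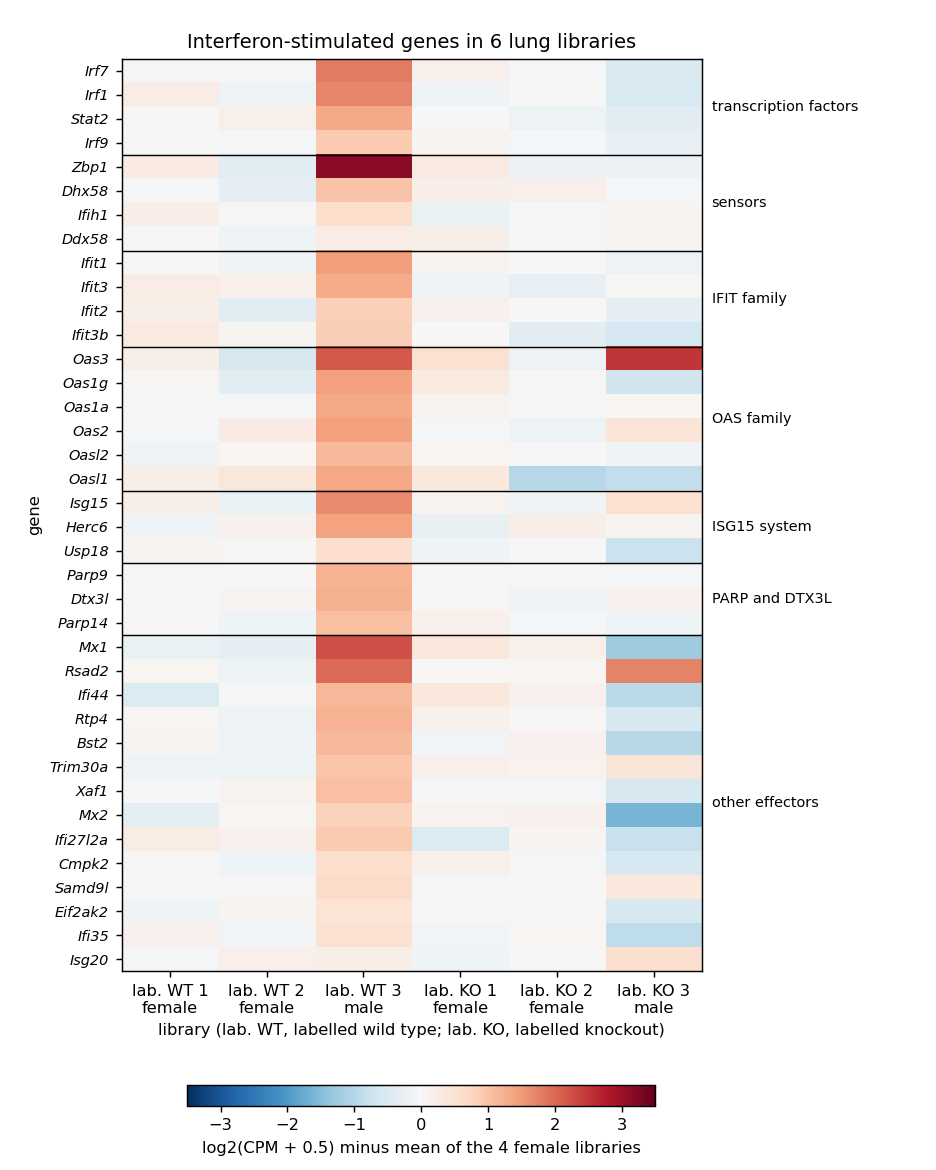
Heat map of the 38 antiviral genes (rows, by role) in the 6 lung libraries (columns), coloured by the difference of log2(CPM + 0.5) from the mean of the 4 females. The column of the male labelled wild type is red from top to bottom (median 1.15), the male labelled knockout is mixed (median −0.25) and the 4 females stay near 0 (medians between −0.05 and 0.08).

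Markers of some other cells were also high in the same library, and those of others were not. B cell markers summed to 225 CPM in the male labelled wild type, inside the 128 to 229 CPM of the females. Summed T cell markers ranged from 34.5 to 45.8 CPM over the females, against 139.9 CPM for the male labelled wild type and 31.7 CPM for the male labelled knockout, and all 7 were highest in the male labelled wild type, where 4 rose against the females. NK cell markers summed to 29.4 to 51.6 CPM over the females, against 73.5 CPM (labelled wild type) and 36.5 CPM (labelled knockout) in the males, and 0 of 6 passed in limma in the former (3 at an unadjusted p under 0.05). Markers of plasmacytoid dendritic cells, a main source of type I interferon, summed to 379 to 479 CPM over the females, against 602 and 365 CPM in those males, and 2 of 10 rose in the male labelled wild type. That list holds Bst2, itself 1 of the 38 genes, and Irf8, which also stands in the interferon gamma list below. Without both genes the other 8 summed to 270 to 352 CPM over the females and to 285 CPM in the male labelled wild type, inside the range of the females. Its marker Klk1 was without a read in at least 1 library. Plasma cell markers summed to 254 to 320 CPM over the females, against 573 and 159 CPM in those males, and 0 of 4 tested passed in limma in the male labelled wild type (2 at an unadjusted p under 0.05). Without Jchain that list summed to 222 to 260 CPM over the females, against 226 CPM in that male. Markers of conventional dendritic cells summed to 137 to 154 CPM over the females, against 206 and 140 CPM in those males, and 1 of 7 rose in the male labelled wild type. Monocyte markers rose for 4 of 8 there. Without Ace, an abundant gene that was lowest in that library, they summed to 304 to 360 CPM over the females, against 627 and 537 CPM in those males. Both males were thus above the females for these markers. The part of these cells in the result was not tested. In whole lung, more cells of a type and more RNA per cell cannot be told apart.

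All 4 transcription factors of the list rose in the male labelled wild type. Irf7, which drives interferon genes themselves, was at 23.1 and 23.0 CPM in the 2 females of the labelled wild type, 85.6 CPM in the male of that label, 27.1 and 23.5 CPM in the labelled knockout females and 16.8 CPM in their male. The male labelled wild type stood 3.72-fold above the females of its label, a difference of 1.87 (SE 0.18, adjusted p 0.00146 in limma). Irf1, a factor that answers to interferon gamma and whose promoter above holds the GAS-type match, was at 96.1 and 72.3 CPM in the 2 females of the labelled wild type, and 262 CPM in their male. In the labelled knockout it was at 73.8 and 78.7 CPM in the females and 54.6 CPM in the male. The difference within the labelled wild type was 1.65 (SE 0.18, adjusted p 0.00236 in limma). Stat2 and Irf9, whose products act together at the ISRE, changed less. Stat2 was at 51.9, 57.7 and 129 CPM across labelled wild type 1 to 3 and at 50.7, 45.1 and 39.8 CPM across labelled knockout 1 to 3, a 2.35-fold higher level in the male labelled wild type (adjusted p 0.00484 in limma). Irf9 was at 49.9, 48.3 and 94.7 CPM and at 53.8, 48.6 and 40.9 CPM in the same order, 1.93-fold higher in that male (adjusted p 0.0125 in limma). For all 4 factors the male labelled wild type was the highest library and the male labelled knockout the lowest. Irf7, Irf1 and Irf9 each overlap a neighbouring gene (Phrf1 by 45 bases, Gm17334 by 135 and Rnf31 by 123), whose reads cannot be told apart there without strand.

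The sensors were split. Zbp1, which binds Z-form nucleic acid and can start necroptosis, had the largest change of the 38 genes. GENCODE places it on GRCm38 at chr2:173206612-173218923, minus strand. It was at 10.8 and 6.48 CPM in the 2 females of the labelled wild type, 81.1 CPM in the male, 10.9 and 7.50 CPM in the labelled knockout females and 7.45 CPM in their male. The male labelled wild type was 9.41-fold above the females of its label, a difference of 3.20 (SE 0.35, adjusted p 0.00239 in limma), while the male labelled knockout lay between the females. The cytosolic RNA sensors did not pass. Ddx58, which encodes RIG-I, was at 69.7, 62.7 and 83.1 CPM across labelled wild type 1 to 3 and at 80.3, 66.6 and 74.0 CPM across labelled knockout 1 to 3 (difference within the labelled wild type 0.33, adjusted p 0.358 in limma). Ifih1, which encodes MDA5, was at 47.4, 42.1 and 61.9 CPM and at 34.7, 39.0 and 43.8 CPM in that order (0.47, adjusted p 0.193). Dhx58, which encodes LGP2, was 2.34-fold higher in the male labelled wild type than in its females but also missed the threshold (adjusted p 0.0528 in limma).

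**Figure D2:**
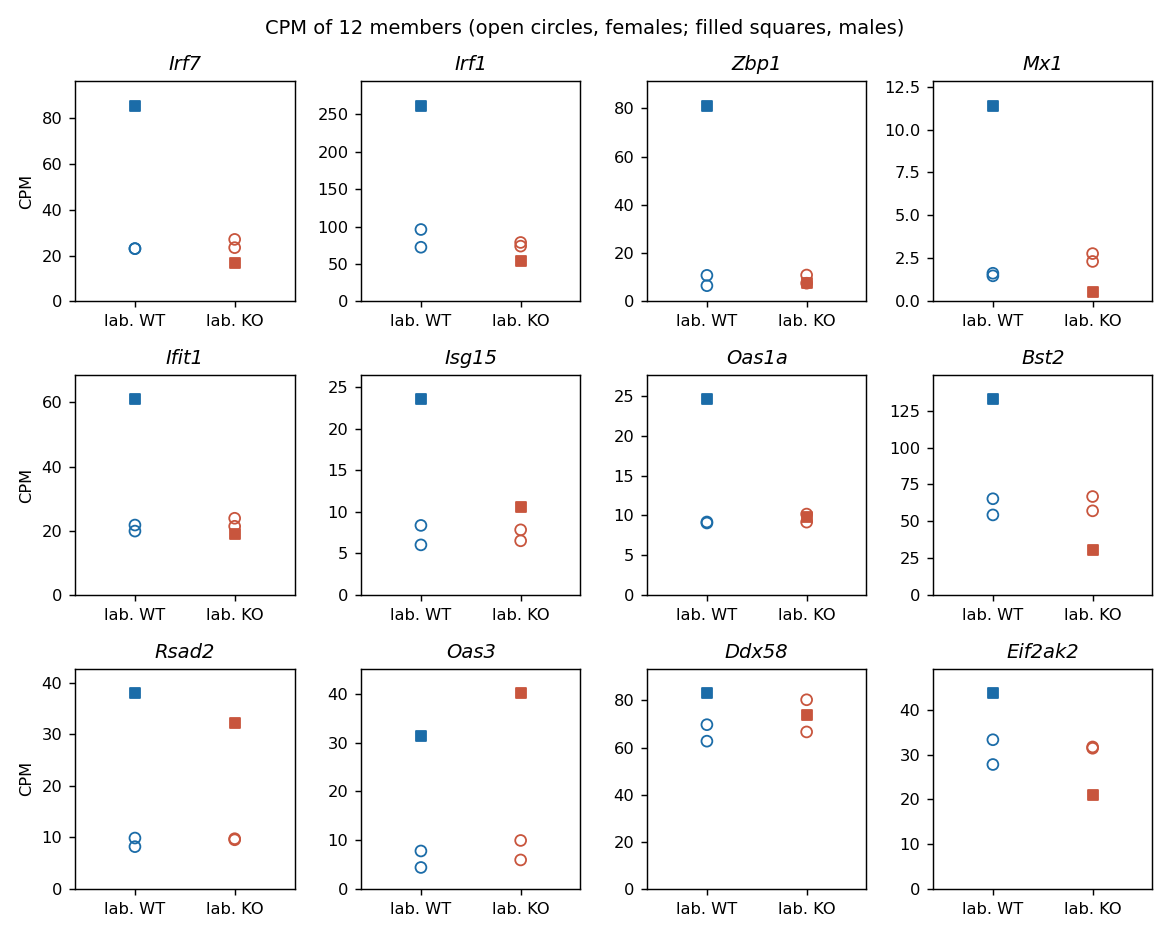
CPM of 12 antiviral genes, 1 panel each with its own axis from 0, by label (open circles, 2 females; filled square, 1 male). For Irf7, Irf1, Zbp1, Mx1, Ifit1, Isg15, Oas1a and Bst2 the male labelled wild type stands alone above the other libraries, Rsad2 and Oas3 are high in both males, and Ddx58 shows little separation.

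Of the IFIT family, whose proteins bind the ends of foreign RNA and block its translation, Ifit1 and Ifit3 rose in the male labelled wild type and Ifit2 and Ifit3b did not pass. Ifit1 was at 21.8, 19.9 and 61.0 CPM across labelled wild type 1 to 3 and at 23.9, 21.4 and 19.1 CPM across labelled knockout 1 to 3, 2.92-fold higher in that male (1.53, SE 0.19, adjusted p 0.00439 in limma). Ifit3 was at 63.5, 59.0 and 129 CPM and at 47.7, 42.6 and 53.7 CPM in the same order (1.07, adjusted p 0.00736 in limma). Ifit2 differed by 0.91 (adjusted p 0.0806) and Ifit3b by 0.65 (adjusted p 0.227) in limma. Ifit3b, next to Ifit3 on chromosome 19, is a near-identical copy: their coding sequences share 1198 of 1209 bases (99.09%), and the promoter stretches above 166 of 174 aligned bases. Reads could therefore be split between them or lost, and the split is uncertain. Their sum was 83.2, 76.0 and 157.9 CPM across labelled wild type 1 to 3 and 63.2, 54.5 and 63.8 CPM across labelled knockout 1 to 3, so the male labelled wild type was high for the pair as a whole.

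The OAS family makes oligoadenylates that switch on RNase L, and 4 of its 6 members rose in the male labelled wild type. Oas1a was at 9.18, 9.05 and 24.6 CPM across labelled wild type 1 to 3 and at 10.2, 9.16 and 9.81 CPM across labelled knockout 1 to 3 (1.38, adjusted p 0.0214 in limma, and 0.0533 without labelled wild type 2). Oas2 was at 16.0, 20.8 and 46.3 CPM and at 16.3, 14.8 and 23.0 CPM (1.32, adjusted p 0.0174). The abundant Oasl2, which has an OAS fold and ubiquitin-like domains, was at 53.8, 60.6 and 128 CPM and at 61.0, 57.9 and 52.9 CPM (1.16, adjusted p 0.00482 in limma). All 3 were highest in the male labelled wild type, and Oas2 was next highest in the male labelled knockout. Oas3, the largest of these enzymes, was the exception in the family, since both males were high. It was at 7.79 and 4.40 CPM in the 2 females of the labelled wild type, 31.3 CPM in their male, 9.95 and 5.95 CPM in the labelled knockout females and 40.2 CPM in their male. Differences were 2.32 (SE 0.39, adjusted p 0.0164) in the labelled wild type and 2.31 (SE 0.39, adjusted p 0.0173) in the labelled knockout by limma, 5.14-fold and 5.06-fold in CPM. The call in the labelled knockout was lost without labelled knockout 2 (adjusted p 0.0522 in limma). Oas1g, a close copy of Oas1a (coding sequences 96.73% identical), and Oasl1 did not pass, and reads of the Oas1 copies could be shared.

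Of the ISG15 system, Isg15 and Herc6 rose in the male labelled wild type. Isg15, a ubiquitin-like protein that is attached to viral and host proteins, was at 8.37, 6.03 and 23.5 CPM across labelled wild type 1 to 3 and at 7.84, 6.53 and 10.6 CPM across labelled knockout 1 to 3. The male labelled wild type was 3.27-fold above its females (1.66, SE 0.30, adjusted p 0.0222 in limma, and 0.0593 without labelled wild type 2). Herc6, the main ISG15 ligase of the mouse, was at 19.7, 24.1 and 58.4 CPM and at 18.1, 25.5 and 23.0 CPM (1.40, adjusted p 0.0191 in limma). Usp18, which removes ISG15 and damps signalling at the interferon receptor, was at 22.2, 21.6 and 31.8 CPM and at 18.8, 21.2 and 12.2 CPM. It did not pass in either male (adjusted p 0.223 in the labelled wild type and 0.0862 in the labelled knockout, limma).

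All 3 genes of the PARP and DTX3L group rose in the male labelled wild type, by much the same amount. Parp9, an ADP-ribosyltransferase family member that pairs with the ubiquitin ligase DTX3L, was at 38.7, 39.9 and 93.8 CPM across labelled wild type 1 to 3 and at 41.2, 41.1 and 38.6 CPM across labelled knockout 1 to 3. Dtx3l was at 41.5, 45.0 and 98.8 CPM and at 42.7, 38.0 and 46.2 CPM in that order. Parp14, an ADP-ribosyltransferase that acts in macrophage signalling, was at 122, 108 and 248 CPM and at 137, 115 and 108 CPM. The differences within the labelled wild type were 1.24, 1.18 and 1.11, with adjusted p values of 0.00359, 0.00603 and 0.00703 in limma. Parp9 and Dtx3l overlap on opposite strands by 458 bases, which can carry reads of either.

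Among the other 14 effectors, 8 rose in the male labelled wild type. Mx1, a GTPase that traps viral nucleocapsids, was low in the females at 1.63, 1.48, 2.78 and 2.32 CPM, reached 11.4 CPM for the male labelled wild type and was at 0.546 CPM for the male labelled knockout. The male labelled wild type was 7.31-fold above its females (2.53, SE 0.39, adjusted p 0.0121 in limma). Rsad2, which encodes viperin, an enzyme that makes a chain-ending nucleotide, was at 9.88 and 8.21 CPM in the 2 females of the labelled wild type, 38.0 CPM in their male, 9.54 and 9.75 CPM in the labelled knockout females and 32.2 CPM in their male. Like Oas3 it rose in both males, 4.20-fold in the labelled wild type (2.02, SE 0.23, adjusted p 0.00331) and 3.33-fold in the labelled knockout (1.69, SE 0.23, adjusted p 0.00796) by limma. Cmpk2, the nucleotide kinase gene beside Rsad2 on chromosome 12 that feeds it substrate, was at 30.4, 26.8 and 45.8 CPM across labelled wild type 1 to 3 and at 33.3, 27.9 and 19.8 CPM across labelled knockout 1 to 3, and did not pass in either male (adjusted p 0.106 in both, limma). The ratio of Rsad2 to Cmpk2 was between 0.287 and 0.349 in the females, 0.830 in the male labelled wild type and 1.63 in the male labelled knockout.

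Bst2, or tetherin, holds budding virus at the cell surface. It was at 65.3, 54.4 and 133 CPM across labelled wild type 1 to 3 and at 57.1, 66.8 and 30.7 CPM across labelled knockout 1 to 3, so that the males lay on either side of the females. It rose in the male labelled wild type (1.15, SE 0.17, adjusted p 0.0102 in limma). Rtp4, an interferon-induced chaperone of receptors, was at 23.5, 20.03 and 54.0 CPM and at 25.4, 22.3 and 15.3 CPM in the same order (1.30, adjusted p 0.0118), though a stretch of 296 bases is shared with Gm45338. Trim30a, a TRIM family protein, was at 44.6, 42.6 and 95.4 CPM and at 55.2, 52.6 and 64.7 CPM (1.12, adjusted p 0.00486 in limma). For Trim30a both males were above every female. Ifi44, an interferon-induced protein, was at 7.08, 10.0 and 23.4 CPM and at 13.1, 11.2 and 5.03 CPM (1.42, adjusted p 0.0367 in limma). Xaf1, a partner of the apoptosis inhibitor XIAP, was at 19.0, 21.1 and 40.4 CPM and at 18.3, 18.4 and 12.9 CPM (0.99, adjusted p 0.0317). Samd9l, which restricts poxviruses, was at 91.7, 93.6 and 145 CPM and at 87.9, 90.8 and 118 CPM (0.64, adjusted p 0.0294 in limma). These last 3 calls were lost when some of the females were left out, with adjusted p values up to 0.0759 for Ifi44 (without labelled wild type 1, labelled knockout 1 or labelled knockout 2), 0.0645 for Xaf1 (without any of the 4 females in turn) and 0.0740 for Samd9l (without labelled wild type 2, labelled knockout 1 or labelled knockout 2).

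Effectors that did not pass in the male labelled wild type were still highest there, apart from Isg20. Eif2ak2, the RNA-activated kinase PKR, was at 27.8, 33.3 and 43.8 CPM across labelled wild type 1 to 3 and at 31.7, 31.4 and 21.1 CPM across labelled knockout 1 to 3 (0.52, adjusted p 0.195 in limma). It lies 0.819 megabases from Cyp1b1 on chromosome 17. Ifi27l2a, an interferon-induced mitochondrial protein, was at 21.1, 19.6 and 33.8 CPM and at 12.4, 18.8 and 10.0 CPM (0.72, adjusted p 0.220). Isg20, an exonuclease, was at 25.2, 29.9 and 30.2 CPM and at 23.8, 26.6 and 39.3 CPM (0.14, adjusted p 0.794 in limma).

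In the male labelled knockout the antiviral genes did not move as a block. Against the 2 females of that label, 2 of 38 genes rose (Rsad2 and Oas3) and 3 fell (Bst2, Mx2 and Ifi35), in total 13.2%, where 4.98% of all genes tested passed, 2.48% upward and 2.5% downward. The median difference was −0.26 over the antiviral genes and −0.13 over all genes. This male lay above every female for 8 genes, below every female for 20 and among them for 10. The share of all genes above every female was not counted, so the 8 are a description only. They were Isg15, Oas2, Oas3, Dtx3l, Isg20, Rsad2, Samd9l and Trim30a. Of these only Rsad2 and Oas3 passed, and Dtx3l at 46.2 CPM was close to the highest female at 45.0 CPM. It was the lowest of all libraries for 20 (52.6%), where 37.5% of all genes were lowest there. Bst2 fell by 0.998 (SE 0.17, adjusted p 0.0186 in limma). Ifi35, an interferon-induced leucine zipper protein, was at 44.8, 37.8 and 58.4 CPM across labelled wild type 1 to 3 and at 37.7, 42.5 and 21.8 CPM across labelled knockout 1 to 3, and fell by 0.86 (SE 0.18, adjusted p 0.0334 in limma). Mx2, a sister Mx gene that GENCODE types as a polymorphic pseudogene, was at 1.72, 2.32 and 4.35 CPM and at 2.51, 2.54 and 0.390 CPM, and fell by 1.76 (SE 0.41, adjusted p 0.0497 in limma). The neighbouring Mx1 differed by −1.54 in this male (adjusted p 0.0633). At these levels of Mx1 and Mx2, 3 reads are worth 0.117 CPM in this library.

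Those calls were less firm than the ones in the male labelled wild type. The call for Mx2 was lost with a pseudocount of 1, with quantile normalization and with median centring. That for Ifi35 was lost with quantile normalization. Leaving out labelled knockout 2 left 1 of the 5 (Rsad2), leaving out labelled knockout 1 left 3, and a log2 scale centred on the library medians gave 4 that rose and 2 that fell. Under that centring 790 of all genes rose and 310 fell, against 431 and 435 without it, and under quantile normalization 413 rose and 250 fell. The same male differed from all other libraries in blood cell markers. Summed neutrophil markers were 6023 CPM in it, from 123 to 184 CPM over the females and 229 CPM for the male labelled wild type, and 8 of the 9 rose against the females of its label. Camp, the ninth, was tested only because it is high in that male. Platelet markers summed to 339 CPM in it and to between 30.4 and 54.5 CPM elsewhere. B cell markers summed to 60.0 CPM in it, against 128 to 229 CPM elsewhere. Monocyte markers, Ace included, summed to 2780 CPM in it, against 1572 to 1705 CPM elsewhere. That gap rested largely on Ace, at 2243 CPM in it and 979 to 1366 CPM elsewhere. F13a1 was also high in it, at 129 CPM against 21.1 to 28.4 CPM over the females and 39.9 CPM for the other male. Over the 8 markers the median difference from the females of its label was 1.07, with 5 higher and 3 lower. In the male labelled wild type it was 0.95, with 7 higher and 1 lower. Once Ace was dropped, the monocyte sum of the male labelled knockout, 537 CPM, lay above the females (304 to 360 CPM) but below the other male (627 CPM). Erythroid markers summed to 851 to 1607 CPM over the females, 2760 CPM for the male labelled wild type and 5848 CPM for the male labelled knockout, so they were above the females in both. Their part in the values of this library was not tested.

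**Figure D3:**
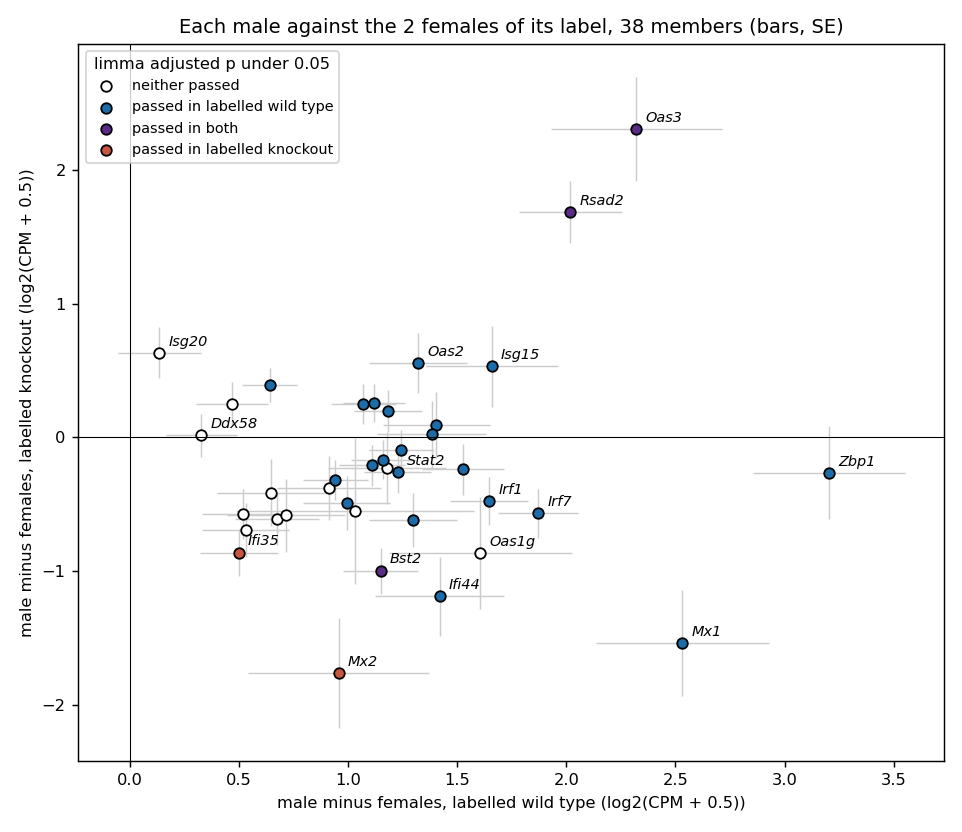
Difference of each male from the 2 females of its label on the log2(CPM + 0.5) scale for the 38 antiviral genes, labelled wild type on the x axis and labelled knockout on the y axis (bars, SE; colour, which test passed). All points lie right of 0, only Oas3 and Rsad2 pass upward on the y axis, and Bst2, Mx2 and Ifi35 pass downward.

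The difference between labels was not the same for the male libraries as for the females. With 1 male per label, an effect of sex cannot be told apart from a trait of a single library. The interaction is the difference of labelled knockout from labelled wild type in the males minus that in the females. It was negative for 37 of 38 genes, where it was negative for 10520 of all 17382 genes tested. It passed in limma for 15, all negative (39.5%), where 2.54% of all genes tested passed and 1.84% in that direction. The median was −1.31 over the antiviral genes and −0.13 over all genes. The genes that passed were Irf7, Irf1, Stat2, Irf9, Zbp1, Ifit1, Oasl2, Parp9, Parp14, Mx1, Rtp4, Bst2, Ifi44, Ifi35 and Xaf1. Values ran from −1.26 (Irf9) to −4.07 (Mx1, SE 0.56, adjusted p 0.0093 in limma). Other large ones were Zbp1 at −3.47 (adjusted p 0.0108), Irf7 at −2.44 (adjusted p 0.00266), Bst2 at −2.15 (adjusted p 0.0039) and Irf1 at −2.12 (adjusted p 0.00509) in limma. For Oas3 the interaction was −0.01 (SE 0.55, adjusted p 0.995) and for Rsad2 −0.33 (SE 0.33, adjusted p 0.650), in limma. The test compares 1 male with 1 male, shares its libraries with the comparisons above and adds no independent evidence to them. Leaving out labelled knockout 1 left 6 of the 15 calls, and Bst2, Irf1, Irf7, Mx1, Rtp4 and Zbp1 passed with each female left out in turn and under each scaling and pseudocount. Centring on library medians turned the background from 122 genes up and 319 down to 348 up and 313 down, and gave 16 antiviral genes, all negative.

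No antiviral gene passed the adjusted threshold in the comparison of labels that the study set up. With all 6 libraries and sex as a term, 0 of 38 genes passed in limma, where 0.0115% of all genes did. A total of 7 had an unadjusted p under 0.05, the smallest adjusted p was 0.775, and no other tool was run. Of the 38, 34 were lower and 4 (Oas3, Isg20, Trim30a and Ddx58) higher in the labelled knockout. Over all genes tested, 10418 were lower and 6964 higher. The median was −0.44 over the antiviral genes and −0.06 over all genes. Among the 2 against 2 females 0 genes passed, where 0.023% of all genes did, 2 (Ifit3 and Trim30a) had an unadjusted p under 0.05 and every adjusted p was 1. In the females 23 genes were higher and 15 lower in the labelled knockout, where 8541 of all genes were higher and 8841 lower. The median was 0.06 over the antiviral genes (all genes, −0.0036). Leaving out either male gave the same median of 0.06. Alveolar macrophage markers summed to 424 and 366 CPM in the labelled wild type females and to 195 and 213 CPM in the labelled knockout females. Chil3 alone carried that gap, and the other 6 summed to 145 and 142 CPM against 136 and 148 CPM.

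Labels did not overlap over 3 against 3 libraries for 6 of 38 genes (15.8%), where 9.52% of all genes did not. They were Ifit3, Ifit3b, Usp18, Ifi27l2a, Xaf1 and Stat2, each lower in every library labelled knockout. Among the females alone 16 of 38 (42.1%) did not overlap, where 28.9% of all genes did not. The largest difference in the females by size was Oasl1, whose protein damps translation of Irf7. It was at 3.77 and 4.20 CPM in the labelled wild type females and 4.17 and 1.31 CPM in the labelled knockout females, which overlap. Ifit3 was lower by 0.44 (SE 0.12) and Ifit3b by 0.41 (SE 0.20) in the labelled knockout females, and neither passed.

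**Figure D4:**
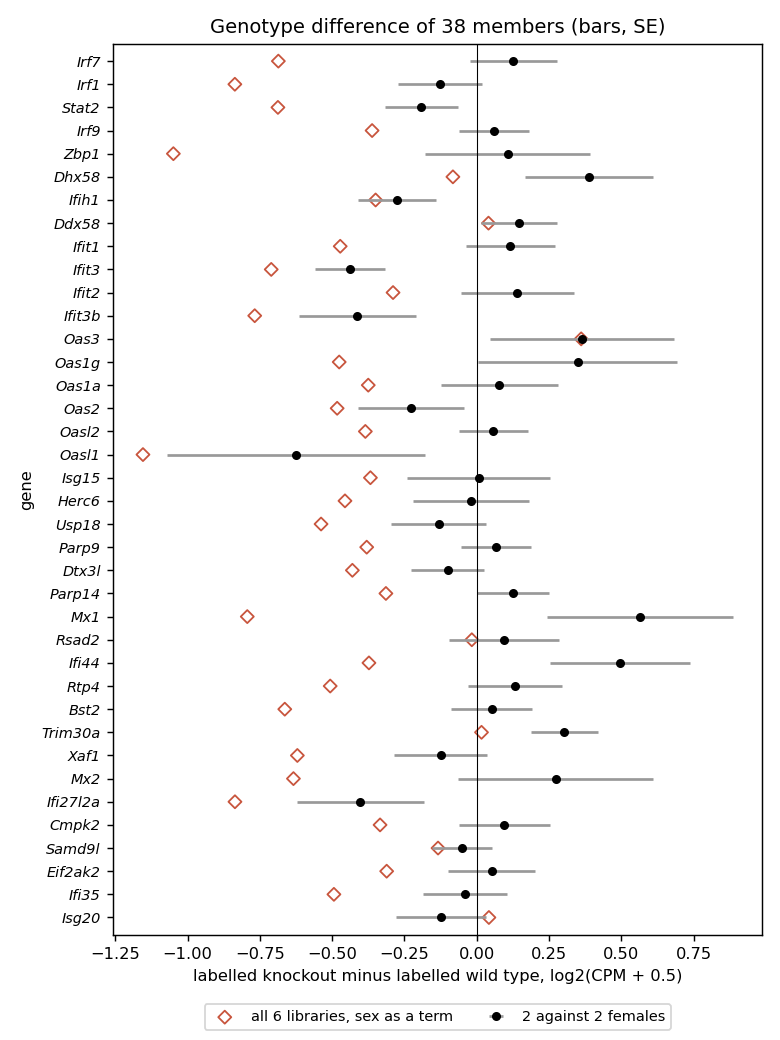
Difference of labelled knockout from labelled wild type on the log2(CPM + 0.5) scale for each of the 38 antiviral genes, from all 6 libraries with sex as a term (open diamonds) and from 2 against 2 females (black points; bars, SE). The diamonds lie left of 0 for 34 genes, while the female points scatter around 0 and none passed.

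Between genes, levels can be compared only per length of exon. Per kilobase, the mean of the 4 females was highest for Bst2 at 67.4 CPM per kilobase, followed by Ifi27l2a at 38.8 and Ifit3 at 30.5. The place of Ifit3 depends on how reads were split with its near-identical copy Ifit3b, at 8.02. Lengths are of GENCODE M21 exons, and the annotation behind the deposited values is not given. The lowest were Mx1 at 0.543 and Mx2 at 0.629 CPM per kilobase, below Oas1g at 0.857 and Oas3 at 0.993. Every gene averaged at least 0.5 CPM over all libraries and over the females alone, so none entered the tests only through the male in which it was high.

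The pathway around these genes was followed with other lists. Of 21 interferon ligands listed, 1 was matched, Ifng, and the others are not analysed here. Ifng, the interferon of T and NK cells, was at 0.209 and 0.297 CPM in the 2 females of the labelled wild type and 7.94 CPM in their male. In the labelled knockout it was at 0.0897 CPM in 1 female and without a read in the other female and the male, so 3 libraries were at or under the level of 3 reads. It was tested only because of the male labelled wild type, in which it is high, and no test is given for it. Of 9 receptor subunits and kinases reported here, 0 passed in that male in limma (3 at an unadjusted p under 0.05), with a median of 0.28, and 0 passed in the male labelled knockout (1 at an unadjusted p under 0.05). Jak2, a kinase of the interferon gamma receptor, was at 75.5, 78.4 and 114 CPM across labelled wild type 1 to 3 and at 78.3, 80.4 and 85.5 CPM across labelled knockout 1 to 3 (0.56, adjusted p 0.0539 in limma). Both Jak2 and the receptor subunit Ifnar2, at 95.6 CPM there, were highest in the male labelled wild type. Upstream sensors and adaptors passed for 4 of 16 tested (Aim2, Irf5, Ikbke and Tlr7), with a median of 0.38, and in the male labelled knockout Tlr7 alone passed. Tlr7, an endosomal sensor of single-stranded RNA, differed by 1.18 and 1.08 in the males. Negative regulators rose for 2 of 10 in the male labelled wild type, with a median of 0.42, and fell for 1 of 10 in the male labelled knockout. Among them Socs1, which blocks JAK kinases, was at 11.0, 5.44 and 46.6 CPM and at 5.65, 3.92 and 1.99 CPM (2.51, adjusted p 0.0175 in limma).

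Genes that interferon gamma is known to induce changed more than the antiviral genes in size, with no test of the difference between the lists. These lists were chosen with earlier results of these data known, so their sizes and counts are a description only. Over all genes tested the median was 0.01 in the male labelled wild type and −0.13 in the male labelled knockout. Of 29 found, 28 were tested and all 28 rose in the male labelled wild type, with a median of 2.62, and in the male labelled knockout 10 fell and none rose, with a median of −0.74. Gbp2, a guanylate-binding GTPase, was at 90.0, 79.2 and 532 CPM across labelled wild type 1 to 3 and at 88.3, 81.2 and 39.8 CPM across labelled knockout 1 to 3. Tgtp1, an immunity-related GTPase with a near copy in Tgtp2, was at 9.48, 12.3 and 185 CPM and at 13.1, 11.1 and 2.99 CPM. MHC class II genes, which present antigen, rose for 8 of 10 in the male labelled wild type (median 1.71) and fell for 7 of 10 in the male labelled knockout (median −1.30). H2-Aa was at 474, 416 and 1566 CPM and at 441, 392 and 165 CPM. Both lists had low values in the male labelled knockout where Rsad2 and Oas3 were high. Ciita stands in both lists, and Socs1 in the interferon gamma list and among the negative regulators.

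**Figure D5:**
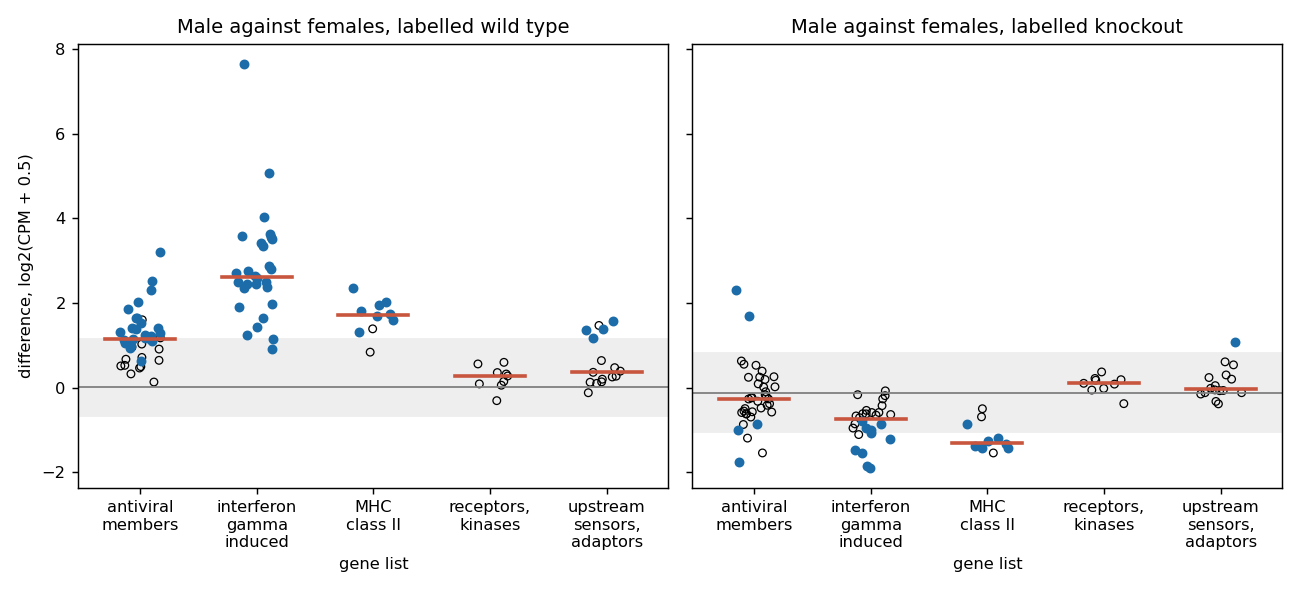
Difference of the male from the 2 females of its label on the log2(CPM + 0.5) scale, 1 point per gene (filled, adjusted p under 0.05 in limma), for the antiviral genes and 4 related lists, labelled wild type on the left and labelled knockout on the right. Red bars mark list medians, the grey line and band the median and the 5th to 95th percentile of all genes tested; on the left the antiviral median is 1.15 and the interferon gamma median 2.62, on the right −0.26 and −0.74.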

How the data were processed

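RNA-seq was measured in 6 lung libraries. The authors deposited gene-level CPM, 1 column per library, with 0.0001 added to every value. The submitters' processing notes name the build mm10, TopHat2 and Partek, and the sources used here give neither the annotation nor the use of strand. Depth was read from the smallest steps between low CPM values. Of values worth up to 100 reads, 82.1% to 83.3% per library were whole within 0.05, which was too few to recover counts, and a count test was not run. Positions come from GENCODE M21 (99.75% of identifiers matched) and promoters from RefSeq, GRCm38.p6.

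The genotype comparison used limma 3.58.1 with a variance trend, in R 4.3.3, fitted to log2(CPM + 0.5) with sex as a term, over 17382 genes of mean CPM at least 0.5. Comparisons by sex used 1 mean per label and sex. Tests were two-sided, adjusted by Benjamini-Hochberg over all genes, with a threshold of 0.05. Depths and low CPM give counting error only. Tables were read with Python 3.11.15. The fit of the genotype comparison, with sex as a term, was tested on simulated data, and the comparisons by sex were not. Antiviral genes and lists were chosen with earlier results of these data known. Values in every library are printed for genes that passed in any comparison and for 15 set ones. From each other list, up to 4 genes past the threshold by smallest p could be named. Cmpk2, Isg20, Oasl1, Dhx58, Irf5, Ikbke and Tlr7 were named, and Bst2, Irf8, Jchain, Ace and Chil3 left out of marker sums, after their values were seen. 1 gene of the receptor and kinase list is not reported here. Alternatives were other pseudocounts, filters, scalings, no sex term and libraries left out.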

Additional observations from a re-analysis of the deposited data

Results flagged for a closer look

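The results here were singled out because the difference between labels itself differed between the sexes by the interaction test in limma, labelled knockout minus labelled wild type in the males minus the same in the females, on the log2(CPM + 0.5) scale with adjusted p under 0.05. There is 1 male per label, so each value rests on a pair of male libraries. An effect of sex cannot be told apart from a trait of a single library.

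Among the antiviral genes the interaction was −2.44 for Irf7, −2.12 for Irf1, −1.49 for Stat2, −1.26 for Irf9 and −3.47 for Zbp1. It was −1.76 for Ifit1, −1.33 for Oasl2, −1.34 for Parp9 and −1.32 for Parp14. Among the remaining effectors it was −4.07 for Mx1, −1.92 for Rtp4, −2.15 for Bst2, −2.61 for Ifi44, −1.36 for Ifi35 and −1.49 for Xaf1.

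Genes named here from lists around the antiviral genes were negative too, but they were picked by the smallest p of this test. They do not speak for their whole lists. Over the whole list the median was −0.35 for upstream sensors and adaptors and −0.36 for negative regulators. Cell markers went both ways, such as 5.56 for the neutrophil marker Mmp8 and −3.48 for the T cell marker Cd4. The interaction was −1.89 for Aim2 and −3.58 for Socs1. It was −3.73 for Gbp2, −5.23 for Gbp4, −3.46 for Gbp7 and −5.89 for Tgtp1. Among MHC class II genes it was −3.46 for H2-Eb1, −3.15 for H2-Aa, −3.21 for Ciita and −3.32 for H2-Ab1. Summed markers of T cells and neutrophils, which moved with the male labelled wild type and the male labelled knockout in turn, are given in the report, and their part in these values was not tested.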

How the results depend on the processing

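Each male is 1 library, the labels do not state that libraries are separate animals, and whole lung mixes cell types. Genes low in all libraries, such as Mx2, are limited by depth. No paired analysis was possible because the replicate numbers are in accession order and pair no samples. Scalings moved the all-gene median of the interaction from −0.13 to 0.03 (quantile) and 0.09 (median centring).

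Of the named antiviral calls tried under single alternatives none reversed, and some were lost. The male that sets each value stayed in every one of these alternatives, so a reversal was unlikely from the start. The 24 genes that rose in the male labelled wild type stayed at 24 under both other pseudocounts, quantile normalization and median centring, and 19 of them passed under every alternative but the missing filter. With no filter on low values no antiviral gene passed in the interaction or either male (0 each), and all genes called were 0 in the interaction, 0 in the females, 31 in the male labelled wild type and 27 in the male labelled knockout. There, 122 genes (0.557%) had identical values within the females of each label, and leaving these out, chosen after seeing the data, gave 23, 15 and 4 antiviral genes in the male labelled wild type, the interaction and the male labelled knockout.

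The median of the genotype difference was −0.36 with quantile normalization, −0.34 with median centring and 0.0577, reversed, in the females alone, and ran from −0.57 to 0.0577 with libraries left out. The reversed 0.0577 came without labelled wild type 3 or labelled knockout 3. In the females it ran from −0.0081 to 0.0871 with libraries left out. The interaction median was −1.16 with quantile normalization and −1.09 with median centring, and from −1.36 to −1.24 with libraries left out, with 6 to 17 antiviral genes and 230 to 577 of all genes passing. Median centring gave a median of 1.09 in the male labelled wild type and −0.10 in the male labelled knockout. In the latter, 3 antiviral genes passed with quantile normalization and 1 to 6 with libraries left out, the median ran from −0.34 to −0.17, and 301 to 1402 of all genes passed.

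Genes past the threshold between labels numbered 6 with no filter, with genes of no spread left out, with quantile normalization and with median centring, 7 in the females alone, and 1 to 4 with libraries left out. Within the females they numbered 12 with median centring and 2 to 11 with libraries left out. Cyp1b1 passed at 1.63 with no filter, with or without genes of no spread, at 1.71 with quantile normalization, at 1.73 with median centring and at 1.76 in the females alone. The cause of these changes was not tested.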
